A study of Mus musculus with 4 samples.

Results

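The genes described here are feedback targets and extracellular antagonists of Wnt signalling, 10 of the 24982 genes in a count table of mouse forebrain at E10.5, a stage given in days of embryonic development. They are the feedback genes Axin2, Nkd1, Nkd2, Notum and Sp5 and the antagonist genes Dkk1, Dkk3, Sfrp1, Sfrp2 and Frzb, taken by symbol. All 10 were found, and all 10 passed the filter on low counts that left 14235 genes for testing. RNA sequencing of micro-dissected forebrain gave 4 libraries, 2 of the control genotype Chd7 +/f and 2 of the conditional knockout (cKO) genotype Sox1 cre+/-; Chd7 f/f. Chd7 encodes a chromatin remodeller, and the title names its effect on neurogenic gene expression as the question. The controls thus carried 1 floxed allele and no Cre in their label, so an effect of the Cre allele cannot be told apart from that of Chd7 loss. The Cre is named for Sox1, a gene of early neural progenitors, and the labels give no check of which cells it reached. Whether 1 embryo or a pool went into each library is not stated, so p-values measure only the spread between these 4 libraries, which may be technical.

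In canonical Wnt signalling, a ligand bound to a Frizzled receptor and an LRP co-receptor stops the breakdown of beta-catenin, which then joins TCF/LEF factors on target genes. Some of these targets encode inhibitors of the pathway and so form a negative feedback, for which Axin2 is the usual readout. Secreted antagonists act before the receptor: secreted frizzled-related proteins bind Wnt ligands, and Dickkopf proteins such as Dkk1 bind the LRP co-receptors. In the embryonic forebrain Wnt signals come mainly from the dorsal midline and pattern the pallium, while antagonists protect anterior tissue.

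In the cKO forebrain 4 of the 5 feedback genes were higher and 1 of the 5 antagonists was lower. Notum rose 3.46-fold, Sp5 2.18-fold, Nkd1 1.54-fold and Axin2 1.43-fold, and Sfrp2 was 1.41-fold lower (edgeR adjusted p 0.0037 to 0.024, n = 2 per group). Nkd2, Dkk1, Dkk3, Sfrp1 and Frzb did not pass the test. Across all genes tested, 3.7% were called in either direction, 1.57% higher and 2.13% lower. The median log2 fold change was 0.36 over the 10 genes and −0.00028 over all genes tested. The genes were chosen with earlier results of these data known, so the counts describe them and no more.

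The promoter sequences of 3 genes with a call, Axin2, Sp5 and Sfrp2, are shown first, with that of Dkk1 for contrast, because TCF/LEF factors recognise a short core that can be read in the letters. RefSeq (GRCm38.p6) gave a promoter for 7 of the 10 genes; Notum, Dkk3 and Sfrp1 had no entry in the table used. Each line gives the 250 bases before the listed transcription start, 5′ to 3′ on the gene's strand, with matches to CTTTGA in capitals, extended where the next base made CTTTGAT or CTTTGAA. Both strands were searched, so TCAAAG and its extensions ATCAAAG and TTCAAAG count as matches. CTTTGAT and CTTTGAA contain CTTTGA. Other variants were not searched for, so the capitals need not mark every form of the core. The windows are chr11:108920099-108920348 (plus strand) for Axin2, chr2:70474673-70474922 (plus strand) for Sp5, chr3:83766071-83766320 (plus strand) for Sfrp2 and chr19:30549497-30549746 (minus strand) for Dkk1. For Axin2, Sfrp2 and Nkd1 the listed start lies inside the span of the RefSeq gene, so the window is that of 1 of its starts. The window of Nkd1 is not printed because the bases after its listed start were found in no GENCODE M21 transcript of the gene, unlike those of the other 6 entries.
Axin2: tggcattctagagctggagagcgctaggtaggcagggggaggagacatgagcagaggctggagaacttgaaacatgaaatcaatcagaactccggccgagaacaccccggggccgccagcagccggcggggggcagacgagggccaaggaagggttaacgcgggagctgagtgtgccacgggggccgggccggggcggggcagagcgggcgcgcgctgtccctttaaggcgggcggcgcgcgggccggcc
Sp5: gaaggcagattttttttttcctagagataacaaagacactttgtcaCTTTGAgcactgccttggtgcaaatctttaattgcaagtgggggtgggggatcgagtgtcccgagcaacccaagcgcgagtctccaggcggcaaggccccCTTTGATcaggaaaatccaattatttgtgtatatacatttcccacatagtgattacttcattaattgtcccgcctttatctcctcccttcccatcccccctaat
Sfrp2: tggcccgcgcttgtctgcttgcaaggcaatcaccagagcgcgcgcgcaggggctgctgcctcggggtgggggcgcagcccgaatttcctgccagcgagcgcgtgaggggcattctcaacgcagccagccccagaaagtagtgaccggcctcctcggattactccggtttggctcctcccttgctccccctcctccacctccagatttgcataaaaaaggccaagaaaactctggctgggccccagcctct
Dkk1: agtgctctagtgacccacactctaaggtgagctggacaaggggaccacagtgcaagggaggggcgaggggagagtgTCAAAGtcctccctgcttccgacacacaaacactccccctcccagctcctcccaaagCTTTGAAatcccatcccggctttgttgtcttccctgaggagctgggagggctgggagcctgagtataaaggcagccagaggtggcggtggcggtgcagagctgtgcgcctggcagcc

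Sp5 held 2 matches to CTTTGA, beginning 204 and 104 bases before the start, and the nearer one read CTTTGAT. Dkk1, which was not called, also held 2, at 174 and 117 bases before the start, the latter as CTTTGAA. Frzb held 1, and Axin2, Nkd1, Nkd2 and Sfrp2 held none in this window. Counting the Nkd1 window, the core was found in 3 of the 7, in 1 gene that rose and 2 genes that were not called. Of 32851 promoter windows of the same length, 13.8% held CTTTGA, 3.21% CTTTGAT and 4.46% CTTTGAA. The matches are a description of letters, and their absence says only that these letters are not in this window.

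Chd7 was at 339 and 345 CPM (counts scaled to a common library size, here with TMM factors) in control replicates 1 and 2 and at 136 and 132 CPM in cKO replicates 1 and 2. Its log2 fold change, cKO over control as everywhere below, was −1.35 (standard error, SE, 0.05, edgeR adjusted p = 8.7e-05). The value counts reads over all exons, so those outside the floxed part are included. Sox1, the gene the Cre is named for, went from 177 and 173 CPM to 139 and 147 CPM, a log2 fold change of −0.29 with an SE of 0.05 (adjusted p = 0.031). Libraries held 16581252 to 17096522 counts. The forebrain homeobox gene Six3 was detected in all 4 libraries, at 31.4 and 40.7 CPM in control and 53.8 and 47.4 CPM in cKO libraries. The midbrain genes En1 and En2 stayed at or under 0.592 CPM. Of 8 tested midbrain and hindbrain genes, however, 2 were called higher in the cKO libraries and 0 lower. They were Fgf17 (18.5 and 24.4 CPM in control, 51.1 and 37.4 CPM in cKO) and Cnpy1 (1.56 and 1.35 CPM in control, 6.57 and 5.15 CPM in cKO). In such bulk tissue, fewer cells of a type and less RNA per cell cannot be told apart.

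Axin2 (GRCm38 chromosome 11, 108917828 to 108950783) encodes the scaffold of the complex that degrades beta-catenin. It was at 133 and 127 CPM in control replicates 1 and 2 and at 189 and 182 CPM in cKO replicates 1 and 2. The groups did not overlap, and replicates of a group lay within a factor of 1.05 of each other. The log2 fold change was 0.52 (SE 0.05, 95% interval 0.40 to 0.64, edgeR adjusted p = 0.0037). It passed the test in each of the 4 fits that left out a library, at 0.49 to 0.55.

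Nkd1 (chromosome 8, 88521342 to 88594887) and Nkd2 (chromosome 13, 73818534 to 73847631) encode the Naked cuticle proteins, which bind Dishevelled and dampen the signal. Nkd1 was at 55.9 and 59.8 CPM in control and at 83.4 and 94.8 CPM in cKO libraries. Both cKO libraries were above both controls, and the lower cKO library was 1.39-fold above the higher control. It rose by 0.62 on the log2 scale (SE 0.08, 95% interval 0.44 to 0.81, adjusted p = 0.0086) and passed the test without each library in turn. Nkd2 was at 17 and 21.3 CPM in control and at 33.4 and 23.3 CPM in cKO libraries. The cKO libraries were again above the controls, but replicate 2 by only 1.09-fold, and the cKO replicates differed 1.43-fold from each other. Its log2 fold change of 0.57 was close to that of Nkd1, with a larger error (SE 0.19, 95% interval 0.12 to 1.01, adjusted p = 0.178). Without cKO replicate 1 it was 0.29 and without cKO replicate 2 it was 0.80, with no call in either fit. Whether the paralogs differ in response was not tested.

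Notum (chromosome 11, 120653788 to 120661193) encodes a secreted enzyme that removes the lipid from Wnt ligands. It had the largest change of the 10 genes. The raw counts were 20 and 24 in control and 78 and 74 in cKO libraries, or 1.2 and 1.41 CPM against 4.7 and 4.38 CPM. The lower cKO library was 3.1-fold above the higher control. Its fitted change was 1.79 on the log2 scale (SE 0.30, 95% interval 1.09 to 2.49, adjusted p = 0.024), rank 37 from the top among 14235 genes. Few counts stand behind this call, and it ended in 3 of the 4 fits with a library left out. The adjusted p was 0.078 in the fit leaving out control replicate 1, 0.102 leaving out cKO replicate 1 and 0.114 leaving out cKO replicate 2, while the log2 fold change stayed at 1.68 to 1.91. Of the 2012 exon bases of Notum, 622 (30.9%) also belong to opposite-strand genes in GENCODE M21. Reads there cannot be told apart because no strand option was recorded. Whether the RefSeq annotation used for counting holds those genes was not checked. The same held for 207 of 4260 exon bases of Axin2 and 347 of 2003 of Sfrp2.

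Sp5 (chromosome 2, 70474923 to 70477726), a zinc finger factor of the Sp family and a direct Wnt target, was at 9.54 and 10.1 CPM in control and at 17.9 and 24.9 CPM in cKO libraries. The controls lay close together, the cKO libraries differed 1.39-fold, and the groups did not overlap. The log2 fold change was 1.12 (SE 0.18, 95% interval 0.70 to 1.55, adjusted p = 0.021). Leaving out cKO replicate 2, the higher of its group, gave 0.87 with an adjusted p of 0.077, and leaving out control replicate 1 gave 1.08 with an adjusted p of 0.061. Without control replicate 2 or cKO replicate 1 the call was kept.

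**Figure D1:**
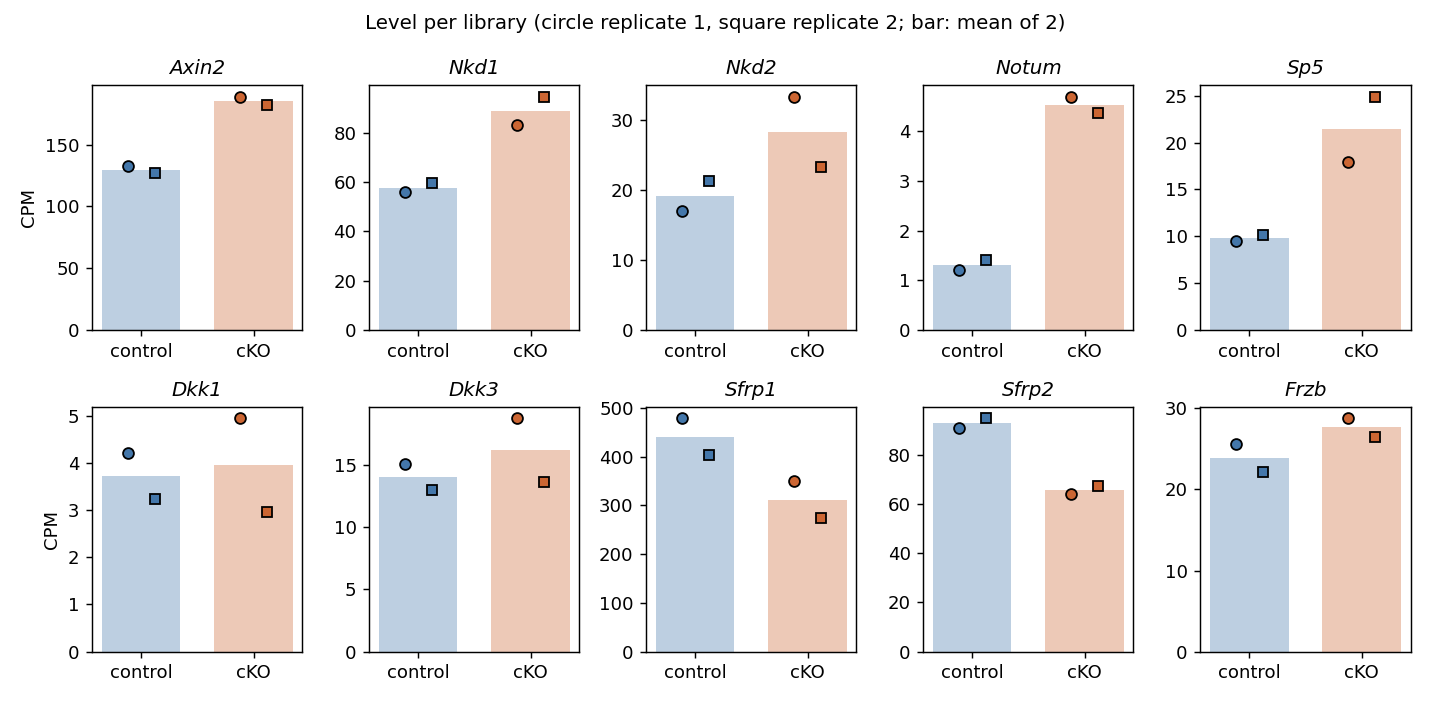
CPM (vertical axis, linear from 0) of each of the 10 genes in control and cKO libraries; circles are replicate 1, squares replicate 2 and bars the mean of 2. Both cKO libraries lie above both controls for the 5 feedback genes and Frzb and below them for Sfrp1 and Sfrp2; Dkk1 and Dkk3 overlap.

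Among the antagonists, Sfrp1 and Sfrp2 were lower in both cKO libraries by nearly the same ratio. Sfrp1 (chromosome 8, 23411383 to 23449632) was at 479 and 404 CPM in control and at 350 and 274 CPM in cKO libraries. Sfrp2 (chromosome 3, 83765750 to 83774314) was at 91.1 and 94.8 CPM in control and at 64 and 67.5 CPM in cKO libraries. Both genes had a cKO level of 70.7% of the control level. Replicates of Sfrp2 differed 1.04-fold in control and 1.05-fold in cKO tissue. Its log2 fold change of −0.50 (SE 0.06, 95% interval −0.64 to −0.36, edgeR adjusted p = 0.0078) was called with all libraries. With each library left out in turn it stayed at −0.54 to −0.46. Replicates of Sfrp1 differed 1.18-fold in control and 1.28-fold in cKO tissue, and its log2 fold change of −0.50 (SE 0.12, 95% interval −0.78 to −0.22) missed the threshold at an adjusted p of 0.070. It passed in the fits that left out control replicate 2 (−0.62, adjusted p = 0.015) and cKO replicate 1 (−0.69, adjusted p = 0.015). It did not pass in those that left out control replicate 1 (−0.37) and cKO replicate 2 (−0.33).

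Frzb (chromosome 2, 80411970 to 80447396), a related secreted gene of the same family, was at 25.6 and 22.1 CPM in control and at 28.7 and 26.5 CPM in cKO libraries. The cKO libraries were above the controls by 1.03-fold at the nearest pair. The log2 fold change was 0.21 (SE 0.11, 95% interval −0.05 to 0.48, adjusted p = 0.40). The interval does not reach the decrease seen for Sfrp2; the difference between the genes was not tested.

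Dkk1 (chromosome 19, 30545876 to 30549496), the Dickkopf gene best known for head induction, was at 4.2 and 3.24 CPM in control and at 4.94 and 2.96 CPM in cKO libraries. The groups overlapped, with both the highest and the lowest library in the cKO group. Its log2 fold change was 0.09 (SE 0.32, 95% interval −0.67 to 0.84, adjusted p = 0.93), an interval that holds changes of the size seen for Axin2 and for Sfrp2. Dkk3 (chromosome 7, 112116019 to 112159482), a divergent member of the Dickkopf family, was at 15.1 and 12.9 CPM in control and at 18.7 and 13.7 CPM in cKO libraries. The groups overlapped here too (0.21, SE 0.18, 95% interval −0.21 to 0.63, adjusted p = 0.62). The sign of both genes turned on cKO replicate 1: without it the log2 fold change was −0.33 for Dkk1 and −0.033 for Dkk3. That of Dkk1 was also negative without control replicate 2, at −0.089.

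**Figure D2:**
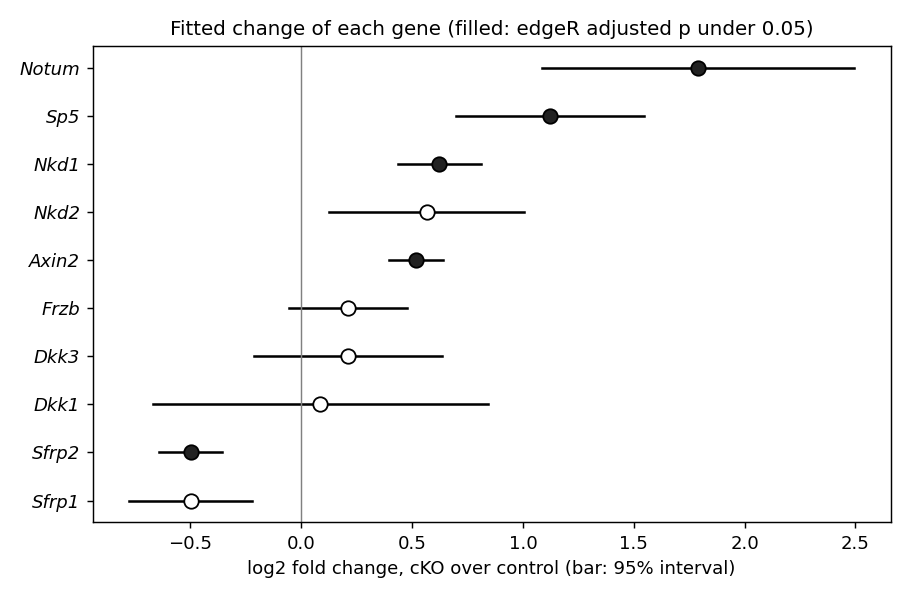
Log2 fold change of cKO over control (horizontal axis) for each gene with its 95% interval from the edgeR fit; filled points had an adjusted p under 0.05. Notum and Sp5 lie farthest to the right at 1.79 and 1.12, Sfrp1 and Sfrp2 share −0.50 with intervals of different width, and Dkk1 has the widest interval of the genes without a call.

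Both cKO libraries lay outside the range of the controls for 8 of the 10 genes, 6 above and 2 below. Over all genes tested 48.3% did so, 24.3% above and 24% below. Within the control group replicate 1 was the higher for 5 of the 10 genes and within the cKO group for 7. Nkd2, Dkk1 and Dkk3, which differed most between the cKO replicates together with Sp5, were higher in replicate 1, and Sp5 was higher in replicate 2. The authors' deposited table called the same 5 genes, 4 higher and 1 lower, among 278 higher and 348 lower of 13964 genes with an adjusted p (1.99% and 2.49%, together 4.48%). Its log2 fold changes differed from those given here by at most 0.0041.

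**Figure D3:**
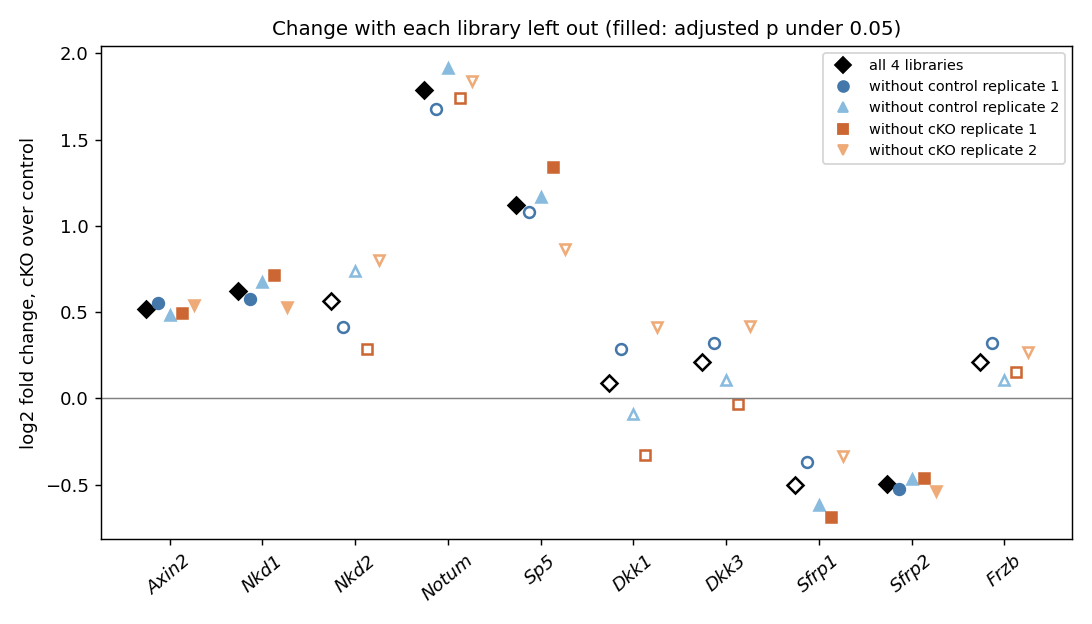
Log2 fold change of cKO over control (vertical axis) of each gene with all 4 libraries and with each library left out; filled symbols had an edgeR adjusted p under 0.05. Axin2, Nkd1 and Sfrp2 are filled throughout, Notum and Sp5 lose their call in 3 and 2 of the fits without a library, and Dkk1 and Dkk3 cross 0.

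Levels of different genes were compared per kilobase of exon. In the controls Sfrp1 was the highest, at 101 ± 12 CPM per kilobase (SD, n = 2), followed by Sfrp2 at 46.4 ± 1.3, Axin2 at 30.5 ± 0.97, Nkd1 at 13.1 ± 0.62 and Frzb at 7.58 ± 0.78 CPM per kilobase. Nkd2 at 4.77 ± 0.76 and Sp5 at 4.68 ± 0.20 overlapped, and Dkk3, Dkk1 and Notum followed at 4.17 ± 0.44, 1.53 ± 0.28 and 0.649 ± 0.075 CPM per kilobase. In the cKO libraries Axin2 at 43.6 ± 1.1 stood above Sfrp2 at 32.8 ± 1.2, the reverse of their order in the controls, with no overlap of libraries in either group. Sp5 moved from rank 7 to rank 5 at 10.2 ± 2.4 CPM per kilobase and overlapped Frzb at 8.77 ± 0.50. Notum at 2.26 ± 0.11 stood above Dkk1 at 1.63 ± 0.58 CPM per kilobase. Other neighbours in either order did not overlap, though with 2 libraries a group this is a weak criterion.

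**Figure D4:**
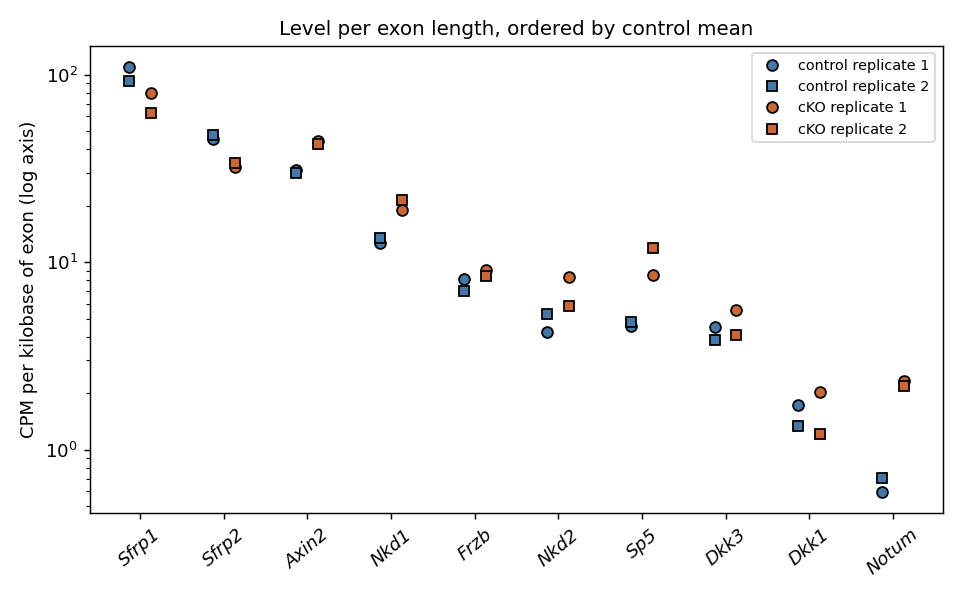
CPM per kilobase of exon (vertical log axis) of the 10 genes in each library, ordered by control mean. The levels run from about 101 for Sfrp1 to 0.649 for Notum in the controls, and Axin2 passes Sfrp2 in the cKO libraries.

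Genes whose pattern over the 4 libraries lay nearest to that of Axin2 were sought among 10775 genes with at least 5 CPM, by the Euclidean distance of centred log2 CPM. The nearest were Igfbp2 (distance 0.023), an insulin-like growth factor binding protein gene, Cxxc5 (0.035), a CXXC zinc finger gene, and Pcsk6 (0.058), a proprotein convertase gene. Igfbp2 rose by 0.53 on the log2 scale (adjusted p = 0.0018) and Cxxc5 by 0.49 (0.0070), while Pcsk6 had a log2 fold change of 0.56 and missed the threshold (0.052). With 4 libraries, the distance reflects the size of the change and the closeness of the replicates.

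Other genes of the Wnt pathway, listed by role, moved in both directions. For comparison, 3.7% of all genes tested were called by edgeR and 17.5% had an unadjusted p under 0.05. Of 8 tested further targets, 4 were higher and 0 lower, with a median log2 fold change of 0.37 (edgeR; 6 higher and 0 lower at an unadjusted p under 0.05, 3 and 0 by DESeq2 and by limma-voom). They were the proto-oncogene Myc (11.8 and 17.4 CPM in control, 29.5 and 25.6 CPM in cKO; 0.91, adjusted p = 0.044), the adaptor gene Nedd9 (0.41, 0.032), the cyclin gene Ccnd1 (0.22, 0.041) and the adhesion receptor gene Cd44 (0.81, 0.046). Cd44 was named after its value was seen. All 4 had an adjusted p of 0.032 to 0.046. With control replicate 1, control replicate 2 or cKO replicate 1 left out 1 target was called higher, and with cKO replicate 2 left out 0 were. Bambi, a BMP pseudoreceptor gene, was at 0.50 (adjusted p = 0.125) and Emx2, a dorsal homeobox gene, at −0.08 (0.82).

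Of 14 tested ligand genes 4 were higher and 1 lower by edgeR (median 0.41), against 1.57% and 2.13% of all genes tested. The counts were 7 and 1 at an unadjusted edgeR p under 0.05, 6 and 1 by DESeq2 and 4 and 1 by limma-voom. Wnt9a was at 20.6 and 16.5 CPM in control and 35.9 and 44.2 CPM in cKO libraries (1.11, adjusted p = 0.0093). Wnt3a, a signal of the cortical hem, went from 18.2 and 14.4 CPM to 32.1 and 37.9 CPM (1.10, adjusted p = 0.0093). Wnt8b, of the same medial region, rose by 0.85 on the log2 scale (adjusted p = 0.016), and Wnt4, named after its value was seen, by 1.24 (0.024). Wnt7a, another ligand of the neuroepithelium, fell from 27.4 and 22.4 CPM to 9.58 and 9.35 CPM (−1.40, adjusted p = 0.0044). The summed level of the ligand list was 542 and 484 CPM in control and 700.01 and 701 CPM in cKO libraries. Without a library, 3 to 5 ligands were higher and 1 lower.

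Of 16 tested receptor and co-receptor genes 0 were higher and 1 lower (median 0.0052; edgeR; 3 and 3 at an unadjusted p under 0.05, 1 and 1 by DESeq2, 0 and 1 by limma-voom): Fzd8 went from 72.4 and 55.5 CPM to 32.6 and 30.5 CPM (−1.02, adjusted p = 0.0080). In the R-spondin axis, whose ligands stabilise Frizzled receptors, 1 of 7 genes was higher and 0 lower (median 0.21; edgeR; 2 and 0 at an unadjusted p under 0.05 and by DESeq2, 1 and 0 by limma-voom): Rspo1 rose from 63.5 and 49.9 CPM to 120 and 115 CPM (1.05, adjusted p = 0.0037). Of 15 cytoplasmic components 0 were higher and 1 lower (median −0.01; edgeR, DESeq2 and limma-voom; 0 and 3 at an unadjusted p under 0.05). The gene was Apc2, an APC homologue of the nervous system (−1.25, adjusted p = 0.0037). Over all genes tested, 3.7% were called and 17.5% had an unadjusted p under 0.05, so 1 call in 15 or 16 genes says little about a list. Of 12 nuclear components, Tcf7 was higher (0.83, adjusted p = 0.0038) and Tcf7l2 lower (−1.30, adjusted p = 0.00034), both TCF factors, with a median of 0.0074. Of 17 further inhibitors, Tpbg, which encodes a membrane glycoprotein that inhibits Wnt signalling, was higher (0.94, adjusted p = 0.0029) and Shisa2, which encodes a protein that retains Frizzled in the endoplasmic reticulum, was lower (−0.68, adjusted p = 0.048). The call of Shisa2 was lost without control replicate 1 or cKO replicate 2, with 0 inhibitors lower in those fits. Leaving out control replicate 2 gave 2 receptors, 2 nuclear components and 1 gene of the R-spondin axis lower, and leaving out cKO replicate 1 gave 2 nuclear components lower. With either control left out, 2 genes of the R-spondin axis and 1 receptor were higher. With cKO replicate 1 left out, 1 receptor and 2 further inhibitors were higher.

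**Figure D5:**
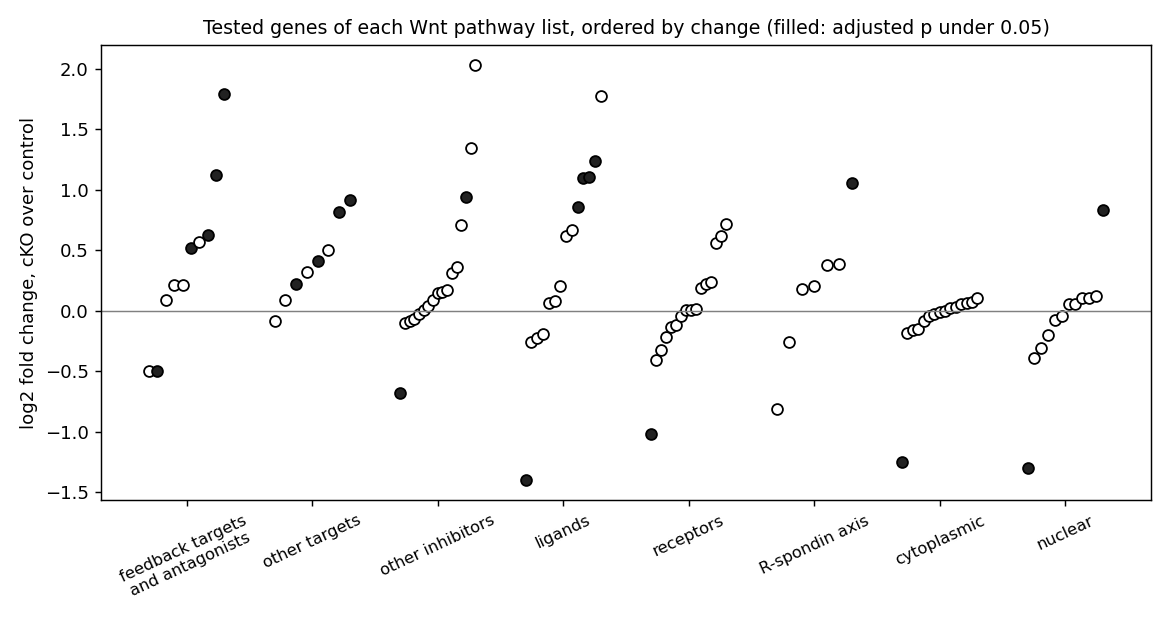
Log2 fold change of cKO over control (vertical axis) of the tested genes in each Wnt pathway list, ordered within a list from low to high; filled points had an edgeR adjusted p under 0.05. The feedback and antagonist list runs from −0.50 to 1.79, and the 15 cytoplasmic components lie near 0 apart from Apc2 at −1.25.

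Markers of tissue that could hold these genes moved in the same comparison. Calls are by edgeR, with those at an unadjusted p under 0.05 given as nominal. Over all genes tested, 3.7% were called and 17.5% were nominal, in either direction. Of 12 cortical hem and roof plate genes 6 were higher and 0 lower (nominal 7 and 0; 7 and 0 by DESeq2; median 0.76), with summed levels of 407 to 504 CPM in control and 712 to 734 CPM in cKO libraries and no gene at 0 in all libraries. Wnt2b, Wnt3a, Wnt8b, Rspo1, Rspo2 and Rspo3 belong to this list as well as to those above, so it is not separate from the pathway. Wnt8b alone was at 166 and 121 CPM in control and 264 and 255 CPM in cKO libraries. The called genes Lmx1a, Bmp4 and Bmp6 are not in the Wnt lists. Of 12 neuronal genes 0 were higher and 4 lower (nominal 0 and 10; 0 and 5 by DESeq2), with sums of 863 to 1090 CPM in control and 623 to 644 CPM in cKO libraries. Of 8 tested midbrain and hindbrain genes 2 were higher and 0 lower (nominal 6 and 0, and 4 and 0 by DESeq2), with sums of 163 to 204 CPM and 216 to 277 CPM. Most of these sums was Otx2, also listed as a forebrain gene, at 137 and 165 CPM in control and 144 and 208 CPM in cKO libraries. Otx2 was not called (edgeR adjusted p = 0.54), so the sums do not stand for midbrain or hindbrain tissue alone. Of 8 ventral midline genes 0 were higher and 1 lower (nominal 0 and 2, and 0 and 2 by DESeq2). The lower gene was Foxd1, which is also in the head mesenchyme list below. The ventral midline sums of 61.8 and 122 CPM in control and 36.3 and 97.9 CPM in cKO libraries differed within each group. The part of these tissues in the changes of the Wnt genes was not tested.

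Non-neural markers differed between libraries of a group. The summed level of 20 head mesenchyme genes was 1302 and 1535 CPM in control replicates 1 and 2 and 1403 and 957 CPM in cKO replicates 1 and 2. Of 19 tested genes 0 were higher and 1 lower (nominal 0 and 7, and 0 and 2 by DESeq2), with Tcf21 at 0. The lower gene was Foxd1, already counted in the ventral midline list. Over all genes tested, 3.7% were called and 17.5% were nominal. Neural crest genes summed to 99.2 and 162 CPM in control and 177 and 108 CPM in cKO libraries (0 of 7 called, also nominally and by DESeq2; Foxd3 at most 0.177 CPM), and surface ectoderm genes to 113 and 133 CPM and 165 and 146 CPM (0 of 10 called, nominally 1 higher, 1 higher by DESeq2; Krt5 and Krt14 at most 0.181 CPM). These sums were higher in replicate 1 of the cKO group and in replicate 2 of the control group. In the surface ectoderm sum Tfap2c was the largest part, at 96.9 and 67.5 CPM in control and 91.7 and 91.5 CPM in cKO libraries. Every other gene of that list was higher in control replicate 2, such as Trp63 (0 and 5.94 CPM in control, 4.76 and 1.60 CPM in cKO). Nkd2 and Notum had the order of the sums in both groups. Axin2, Dkk1, Dkk3, Sfrp1 and Frzb were higher in replicate 1 of both groups, and Nkd1, Sp5 and Sfrp2 in replicate 2 of both. Erythroid genes summed to 2852 to 3071 CPM in control and 1808 to 1895 CPM in cKO libraries. Of 9 tested genes 0 were higher and 6 lower (nominal 0 and 7, and 0 and 6 by DESeq2). The 4 globin genes Hba-a1, Hba-a2, Hbb-bt and Hbb-bs had 0 counts in all 4 libraries. Whether their reads were lost in counting is not recorded, so these values do not show absence of their RNA. Endothelial genes summed to 366 to 377 CPM against 322 to 327 CPM (0 of 12 called; nominally 1 higher and 5 lower; 0 by DESeq2). The part of any of these cell types in the changes of the Wnt genes was not tested.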

How the data were processed

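Polyadenylated RNA of micro-dissected E10.5 forebrain was sequenced in 2 control and 2 cKO libraries. The deposited table holds raw paired-end read counts over exons, summed per gene by featureCounts 2.0.1, with a UCSC RefSeq annotation (mm10) and no recorded strand option, per the file headers; HISAT2 and DESeq2 are named in the submitters' processing notes. A second table, of the authors' own comparison, was deposited with log2 fold changes and their errors, p-values and adjusted p-values, a Wald statistic (a score, not used) and normalized counts, a signal equal to the raw count times 1 constant per library (0.987 to 1.01). Its values are used only where it is named. There were 0 columns without a sample.

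Genes were kept by filterByExpr (minimum count 10), scaled by TMM and compared in edgeR 4.0.16 (glmQLFit, glmQLFTest, R 4.3.3), with Benjamini-Hochberg adjustment over all 14235 genes; adjusted p under 0.05 was called. The SE is the log2 fold change over the root of F, and intervals are 95%. The fit was tested on simulated counts. The common biological coefficient of variation was 0.0785. Replicates were distinct libraries (chi-square over degrees of freedom 4.78 in control and 4.07 in cKO tissue). Exon lengths are unions of GENCODE M21 transcripts with a RefSeq match. Gene positions and promoters are RefSeq GRCm38.p6; protein sequences were not used here. The genes, lists and tests were chosen with earlier results of these data known. Named genes were the 10 genes, Chd7, Sox1, up to 3 called genes per direction in each Wnt list, the 3 nearest to Axin2 and the markers a result turns on; others were named after their values were seen. Of the list symbols, 1 was not matched. The forebrain identity list is not reported here as a whole. The alternatives tried were leaving out each library, a block on replicate number, removal of erythroid genes, limma-voom (limma 3.58.1), the DESeq2 1.42.0 Wald test, no filter, and upper-quartile or DESeq2 size factors in place of TMM. Plots used matplotlib 3.10.9.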

Additional observations from a re-analysis of the deposited data

How the results depend on the processing

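With upper-quartile or DESeq2 size factors, without a count filter, by limma-voom or the DESeq2 Wald test, and with erythroid genes removed, 4 of the 10 genes were called higher and 1 lower, as in the fit reported, and no median of all genes over the settings left −0.0023 to 0.014. Leaving out 1 library gave 80 to 351 genes called higher and 131 to 418 lower over all genes, and 2 to 4 higher and 1 to 2 lower among the 10; those fits assume that a lone library varies like the other group. The sign turned only for Dkk1 (−0.33 to 0.41 without a library) and Dkk3 (−0.033 to 0.42), neither called in any fit. Of 110 fold changes of the 10 genes under 11 alternatives, 98 kept direction and call. Same-numbered libraries of the groups did not deviate together (correlation −0.018 over 11103 genes), so the numbers were not taken as pairs. With the replicate number as a block, 137 genes were called higher and 211 lower, and 3 and 2 among the 10: Notum missed the threshold (1.79, adjusted p = 0.056) and Sfrp1 passed it (−0.50, adjusted p = 0.010). Of the further Wnt targets 0 were called higher in that fit. The cause of these shifts was not tested. Depth limits Notum and Dkk1 most, with 20 to 82 counts per library.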

Other observations

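Among the further Wnt inhibitors, 3 genes without a call had larger fold changes than most of the genes described; they were chosen after their values were seen. Apcdd1, which encodes a membrane-bound inhibitor of Wnt signalling, was at 160 and 143 CPM in control and at 189 and 307 CPM in the cKO pair (0.71 on the log2 scale, edgeR adjusted p = 0.103). Both cKO libraries were above the controls, with replicate 2 far above replicate 1, as for Sp5. Dact2, of the Dapper family of Dishevelled-binding proteins, was at 1.5 and 2.06 CPM in control libraries and reached 5.12 and 3.96 CPM in the cKO pair (1.35, adjusted p = 0.068). Sost, which encodes an LRP-binding antagonist, was at 0.36 and 0.706 CPM in control and 1.21 and 3.19 CPM in the cKO pair (2.03, adjusted p = 0.141). Dkk4 had 0 counts in all 4 libraries.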
